A study of Mus musculus with 10 samples.

Results

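Integrins and laminins were described here as a gene family in RNA from frozen whole mouse liver. All protein-coding genes with an integrin alpha, integrin beta or laminin chain symbol were taken, which gave 37 of the 55385 gene IDs in the deposited tables: 18 integrin alpha chains, 8 integrin beta chains and 11 laminin chains. The samples were 5 control libraries (genotype Ctrl) and 5 libraries labelled Alk1-HEC-KO (genotype KO), and the series title gives Acvrl1 as the other name of the gene knocked out. The labels do not spell out HEC, do not name a Cre line, and give no strain, age, sex or treatment. Whether each library stands for its own animal is not stated either. The p-values then weigh the group difference only against the variation between these libraries, and that variation may be technical.

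Integrins are receptors of an alpha and a beta chain that bind cells to the matrix or to other cells, and the pairing decides the ligand. Laminins are basement membrane proteins assembled from an alpha, a beta and a gamma chain, and they are bound mainly by integrins that hold the alpha chain of Itga3, Itga6 or Itga7. Integrins with the beta chain of Itgb2 or Itgb7 are found on leukocytes. The sinusoids of healthy liver are known for having almost no continuous basement membrane, unlike the capillaries of most organs.

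Levels are given in TPM (transcript abundance scaled for transcript length and library size, so that levels of different genes can be compared), and tests were run on the estimated counts. The depth was nearly even, with 20.91 to 21.56 M estimated counts per library. Hepatocyte markers were high in all libraries, with a summed level over 8 genes of 44490 to 79610 TPM in controls and 45000 to 80830 TPM in the others. The largest part of that sum was Alb, at 36047 ± 9217 and 36370 ± 10212 TPM. Cyp2e1, of the same list, averaged 3153 ± 261 and 1658 ± 858 TPM without overlap between the groups. Its log2 fold change was -1.06 (SE 0.26; edgeR, adjusted p = 0.174). DESeq2 called it lower, as it did 70 of all 12872 tested genes. The targeted gene went against the label: Acvrl1 averaged 0.669 ± 0.331 TPM in controls and 1.36 ± 0.331 TPM under the label Alk1-HEC-KO (SD, 5 libraries in each group). These are therefore called labelled knockout libraries, and each direction below rests on the label. The endothelial gene Pecam1 was also higher under that label, at 5.49 ± 2.18 TPM against 2.54 ± 1.06 TPM in controls. Cdh5, another endothelial gene, was at 5.27 ± 1.85 TPM against 2.66 ± 0.904 TPM. Whether the Acvrl1 levels follow the endothelial part of the RNA was not tested.

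Of the 37 members, 29 had enough counts to be tested. Of these, 1 rose in the labelled knockout libraries, Itga6, and none fell (quasi-likelihood test of edgeR, adjusted p under 0.05 after Benjamini-Hochberg over all 12872 tested genes). Over all tested genes 0.186% rose, 0.171% fell, and 0.357% were called in either direction. The median log2 fold change was 0.20 over the tested members, 0.27 over the 19 tested integrins and 0.02 over the 10 tested laminin chains, against 0.00 over all tested genes. At an unadjusted p under 0.05, 9 of the 29 pointed higher and 0 lower, where 5.03% of all tested genes pointed higher and 3.42% lower, 8.44% in all. In sign alone 21 of the 29 log2 fold changes were above 0, as were 50.4% of all tested genes.

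**Figure D1:**
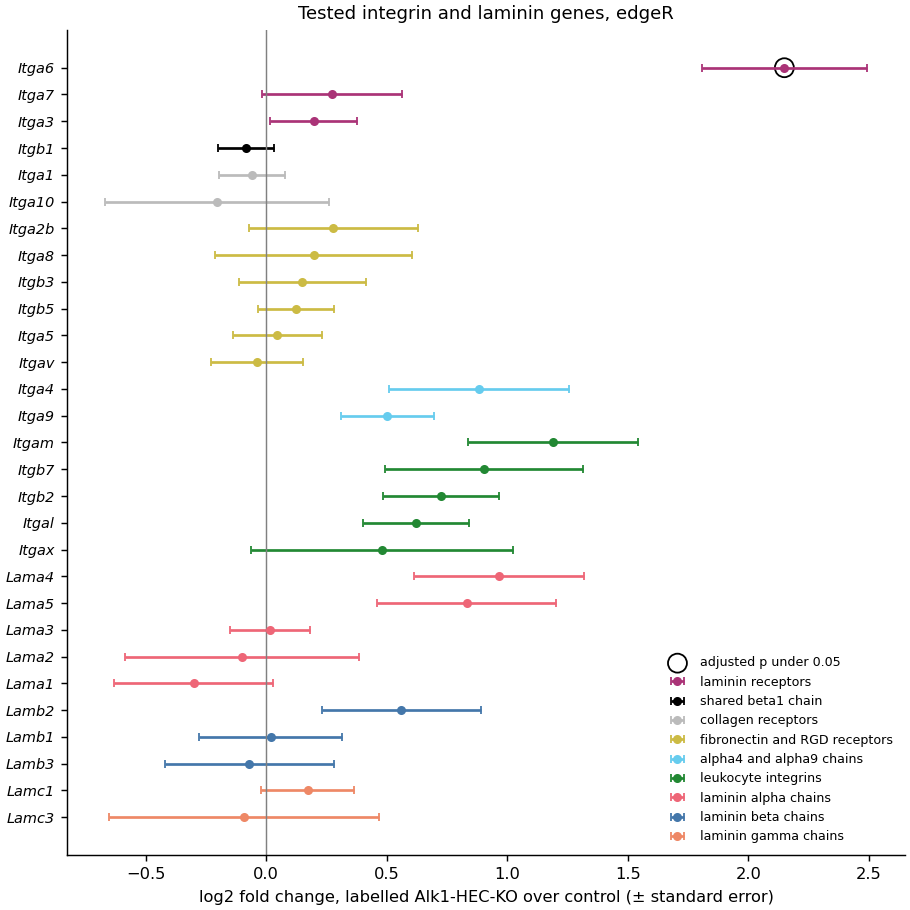
Log2 fold change of each tested integrin and laminin gene, labelled Alk1-HEC-KO over control, with its standard error (SE) from edgeR (n = 5 libraries each), coloured by role. Only Itga6, circled at 2.15, passed an adjusted p under 0.05; the next largest values, Itgam at 1.19 and Lama4 at 0.97, did not.

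Itga6 encodes the alpha 6 chain, which forms laminin receptors with the beta 1 or the beta 4 chain and marks many epithelial and endothelial cells that sit on a basement membrane. The gene (ENSMUSG00000027111.16) lies on the plus strand of chromosome 2, from 71745616 to 71858416 (GRCm38), and shares no exon base with another annotated gene. Control libraries 1 to 5 held 0.374, 0.825, 0.164, 0.492 and 0.374 TPM, and labelled knockout libraries 1 to 5 held 1.36, 2.20, 2.11, 3.07 and 1.15 TPM. Every labelled knockout library was above every control library, which held for 1.31% of all tested genes. The means were 0.446 ± 0.243 and 1.98 ± 0.764 TPM (SD, n = 5), from 113 counts in controls and 522 in labelled knockout libraries. The log2 fold change was 2.15 (standard error, SE, 0.34; edgeR, adjusted p = 0.0116).

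The direction of Itga6 held in all 24 alternatives and the call in 19 of them. Itga6 could not fail 1 of these, a looser adjusted p threshold of 0.1 on the main fit. It did not pass with limma on log2(TPM + 1) or log2(TPM + 0.1) (adjusted p = 0.115 and 0.0627), without the 3 libraries with Saa1 above 1000 TPM (edgeR, 0.0597), or where the run (a stretch of unbroken numbering in the names of the deposited tables) was a covariate or the third run was left out (edgeR, 0.271 and 0.163). What a run stands for is not in the labels. In the first run, Itga6 was at 0.374 and 0.825 TPM in 2 controls and at 1.36 TPM in 1 labelled knockout library. In the second, 3 controls lay at 0.164 to 0.492 TPM and 1 labelled knockout library at 2.11 TPM. The third run holds 3 labelled knockout libraries and no control.

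Among the other laminin receptor chains, levels overlapped between the groups. Itga3, the alpha 3 chain of epithelial laminin receptors, stood at 1.27, 1.46, 0.856, 1.56 and 1.203 TPM in controls, against 1.03, 1.72, 1.69, 1.57 and 1.498 TPM in the labelled knockouts. Its log2 fold change was 0.20 (SE 0.18; edgeR, adjusted p = 0.813). Itga7, the alpha 7 chain best known from muscle, stood at 2.39, 2.34, 2.68, 1.91 and 1.90 TPM in controls, against 1.69, 4.36, 2.12, 2.999 and 4.42 TPM in the labelled knockouts. Labelled knockout libraries 2 and 5 were the highest for Itga7 and library 1 the lowest of all 10. Its log2 fold change was 0.27 (SE 0.29; edgeR, adjusted p = 0.840), and turned to -0.29 without the third run. The counts behind 1 TPM of Itga7 differed 2.12-fold between libraries. It shares 9 of its 8092 exon bases with Mettl7b on the other strand, whose mean count was 15020, and the part of that overlap was not tested. Smooth muscle markers, 6 genes, summed to 10.7 to 26.4 TPM in controls, against 9.60 to 23.9 TPM in the labelled knockouts. Itgb4, the beta chain that pairs with alpha 6 in hemidesmosomes, had 80 counts over all libraries and was not tested: it lay at 0.0689 to 0.121 TPM in controls, against 0 to 0.164 TPM in the labelled knockouts (exact two-sided permutation p = 0.317).

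Within the 3 laminin receptor alpha chains, Itga7 was the most abundant and Itga6 the least in each control library. Itga6 made up 10.9 ± 4.87% of their summed TPM in controls and 30.4 ± 9.31% in labelled knockout libraries (SD, n = 5), with control library 2 at 17.8% above labelled knockout library 5 at 16.2%. In labelled knockout libraries 3 and 4, Itga6 was level with or above Itga7, at 35.7% and 40.2% of the sum against 35.8% and 39.3%. Itgb1, the beta 1 chain shared by most matrix-binding alpha chains, was the most abundant member. It averaged 31.3 ± 7.22 TPM in controls, against 31.1 ± 7.03 TPM in the labelled knockouts, a log2 fold change of -0.08 (SE 0.12; edgeR, adjusted p = 0.875).

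**Figure D2:**
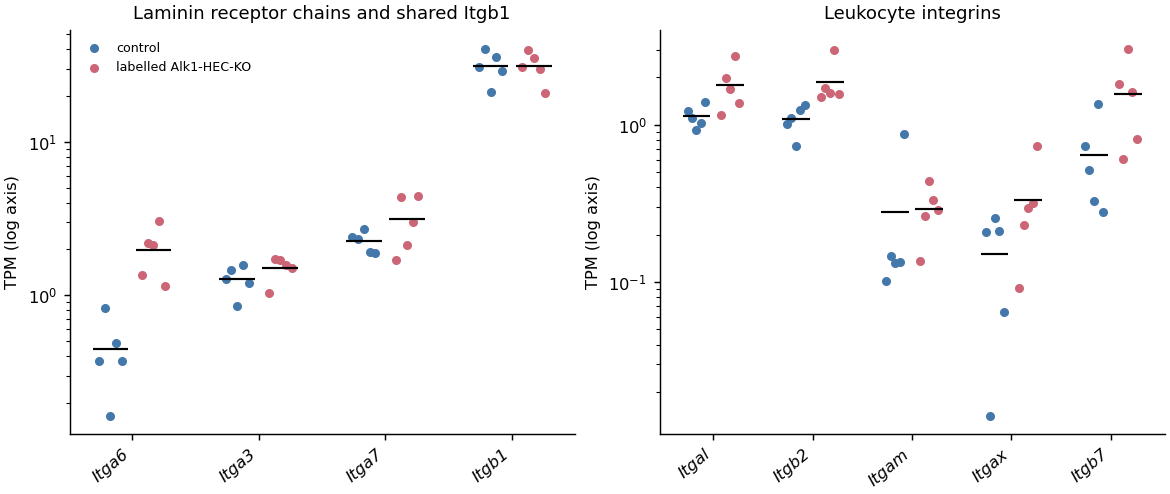
TPM (log axis) of laminin receptor chains with Itgb1 (left) and of leukocyte integrins (right) in each of 5 control and 5 labelled knockout libraries; points are libraries and bars are group means. For Itga6 the groups do not overlap (at most 0.825 against at least 1.15 TPM), while Itga3, Itga7 and Itgb1 overlap; Itgb2 is also apart (at most 1.33 against at least 1.503 TPM) but did not pass the test on counts.

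Whether Itga6 differed by more than another chain was tested by the difference of log2(TPM + 0.1) within each library, for 11 tested partners. The difference between the groups passed for 9 of the 11 (exact two-sided permutation test, Benjamini-Hochberg adjusted over the 11 pairs). Against Itga3 it was 1.73 (control mean -1.42 ± 0.40, labelled knockout mean 0.32 ± 0.45; exact permutation p = 0.0079, the lowest value this design allows, adjusted p = 0.0175). Against Itgb1 it was 1.97 and against the leukocyte chain Itgal 1.40, with the same p. Against Itga7 it was 1.59 (exact permutation, adjusted p = 0.0291) and against Itgb2 1.25 (exact permutation, adjusted p = 0.0218). The pairs that missed were Itgax with 1.21 and Itgb7 with 0.81 (exact permutation, adjusted p = 0.167 for both). Itga6 was chosen with its rise known, so these tests describe how far it stood from the other chains and are no independent evidence of that rise.

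**Figure D3:**
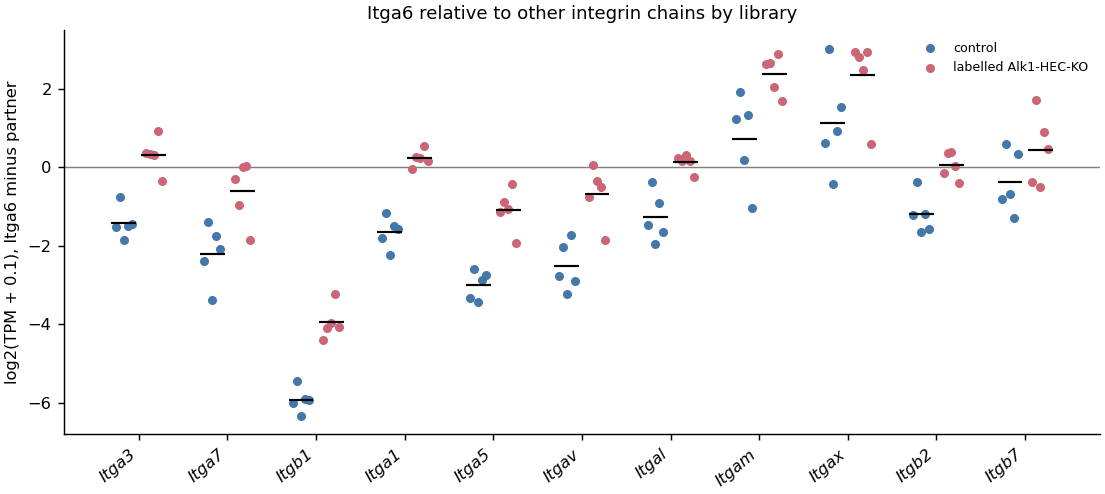
Difference of log2(TPM + 0.1) between Itga6 and 11 other integrin chains in each library (points) with group means (bars), 5 control and 5 labelled knockout libraries. The labelled knockout mean is higher for all 11 partners, by 0.81 for Itgb7 up to 1.97 for Itgb1.

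Beside Itga6, several of the 10 markers listed for endothelium with a continuous wall were higher in the labelled knockout libraries. Of the 10, 5 rose (edgeR; 2 to 6 by DESeq2 and limma), against 0.186% of all tested genes by edgeR. The list was chosen with earlier results of these data known, so this count describes the list and is no independent evidence of enrichment. It also holds the endothelial genes Pecam1 and Cdh5, and whether it separates this endothelium from other types was not tested. The 10 together summed to 35.4 to 64.8 TPM in controls, against 71.3 to 136 TPM in the labelled knockouts. Much of that was Plvap, at 19.2 ± 3.12 and 22.2 ± 3.48 TPM, and Aqp1, at 16.9 ± 5.90 and 24.7 ± 5.24 TPM. Both overlapped between the groups and were not called. The 10 sinusoidal markers, of the liver's fenestrated endothelium, summed to 50.2 to 106 and 57.2 to 115 TPM, with none called by edgeR, DESeq2 or limma and none at an unadjusted p under 0.05. Bile duct markers (8 genes, 21.4 to 33.9 and 20.3 to 57.9 TPM) and mesothelial markers (6 genes, 0.416 to 1.12 and 0.0541 to 1.93 TPM), of cells that also carry alpha 6, overlapped between the groups in their sums. The bile duct sum was mostly Spp1, at 20.98 ± 4.91 and 23.6 ± 13.2 TPM. Another of its genes, the transcription factor gene Sox9, averaged 0.722 ± 0.186 and 1.61 ± 0.564 TPM (log2 fold change 1.16, SE 0.30; edgeR, adjusted p = 0.190) and was called higher by DESeq2. Vwf, a marker of vascular endothelium that was not in the list of 10, went the other way, with a log2 fold change of -1.16 (SE 0.39; edgeR, adjusted p = 0.379). Set against single endothelial genes within each library, a comparison chosen after their values were seen, Itga6 was higher relative to Cdh5 by 1.01 and relative to Pecam1 by 0.88 on the log2(TPM + 0.1) scale (exact permutation, adjusted p = 0.0476 over 6 pairs for both). Relative to Emcn the difference was -0.07 and relative to Cd34 -0.51 (exact permutation, adjusted p = 0.810 and 0.114), relative to Cldn5 0.56 (adjusted p = 0.0714, exact permutation), and relative to Ly6c1 -2.53 (exact permutation, adjusted p = 0.0476). In RNA of whole liver, more cells of a type and more transcript per cell cannot be told apart, and the part of the endothelial and bile duct markers in the Itga6 result was not tested.

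**Figure D4:**
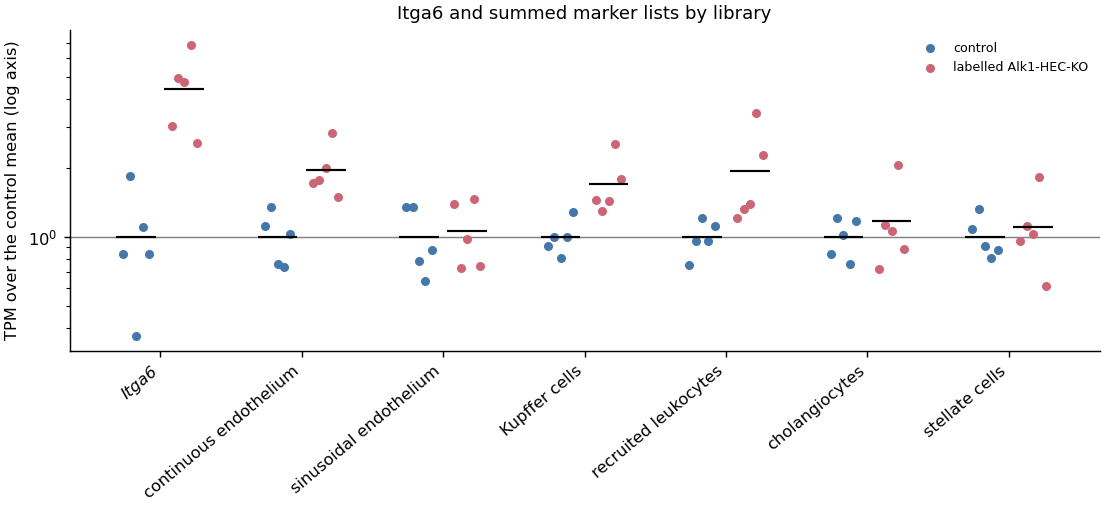
Itga6 and summed marker lists in each library, as TPM divided by the control mean (log axis); points are libraries, bars are group means, 5 control and 5 labelled knockout libraries. The continuous endothelial, Kupffer cell and recruited leukocyte sums do not overlap between the groups, nor does Itga6, while the sinusoidal, bile duct and stellate cell sums do. The gap is small for Kupffer cells (at most 207 against at least 209 TPM) and for recruited leukocytes (at most 35.7 against at least 35.8 TPM).

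Among leukocyte integrins no gene was called. Of 7 genes 5 were tested, and 0 passed by edgeR, DESeq2, limma-voom or limma on log2 TPM. At an unadjusted p under 0.05, 4 of the 5 pointed higher, against 5.03% of all tested genes. The median log2 fold change of the 5 was 0.73. Itgb2, the beta chain common to the main leukocyte integrins, stood at 1.01, 1.10, 0.727, 1.25 and 1.33 TPM in controls, against 1.503, 1.70, 1.59, 2.99 and 1.55 TPM in the labelled knockouts. The groups did not overlap in TPM, and labelled knockout library 4 was far above the rest. Its log2 fold change was 0.73 (SE 0.24; edgeR, adjusted p = 0.367).

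Itgal, the alpha chain of LFA-1 on lymphocytes, overlapped between the groups. It stood at 1.22, 1.10, 0.922, 1.02 and 1.39 TPM in controls, against 1.15, 1.97, 1.67, 2.75 and 1.38 TPM in the labelled knockouts, again with library 4 highest. The log2 fold change was 0.62 (SE 0.22; edgeR, adjusted p = 0.426). Itgal and Itgb2, which pair in LFA-1, had a TPM ratio (Itgal over Itgb2) of 1.07 ± 0.178 in controls and 0.955 ± 0.151 in labelled knockout libraries (SD, n = 5), which overlapped.

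Itgb7, the beta chain of gut-homing lymphocyte integrins, stood at 0.732, 0.512, 0.328, 1.36 and 0.278 TPM in controls, against 1.81, 0.603, 3.04, 1.61 and 0.813 TPM in the labelled knockouts. It rested on only 169 counts over all libraries, and the number of counts behind 1 TPM differed 10.2-fold between them. Its log2 fold change was 0.90 (SE 0.41; edgeR, adjusted p = 0.583). Itgam, the alpha chain of Mac-1 on myeloid cells, showed how much the scale can matter: in counts control libraries held 9, 12, 12, 11 and 7 and labelled knockout libraries 12, 21, 31, 30 and 28. In TPM control library 5 stood at 0.875 from its 7 counts and was the highest of all 10, so that the group means were 0.278 ± 0.334 and 0.291 ± 0.108 TPM. On counts the log2 fold change was 1.19 (SE 0.35; edgeR, adjusted p = 0.289), and with limma on log2(TPM + 1) it was 0.04. Another annotated protein-coding gene model on the same strand shares 3450 of the 5024 exon bases of Itgam, and its mean count was 0.

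Itgax, the CD11c chain of dendritic cells, had 122 counts over all libraries and a log2 fold change of 0.48 (SE 0.54; edgeR, adjusted p = 0.847). Itgam, Itgax and Itgad are close copies that lie side by side on chromosome 7, separated by 11.1 and 3.7 kb. Itgad had 0 counts in all 10 libraries, which over the summed depth of the 10 libraries allows up to 0.0142 CPM (counts scaled to library size), and Itgae, the chain of tissue-resident T cells, had 42 counts and was not tested (exact permutation p = 0.484). Markers of Kupffer cells, the macrophages of the liver, summed to 130 to 207 TPM in controls, against 209 to 409 TPM in the labelled knockouts (10 genes). At an unadjusted p under 0.05, 9 of the 10 pointed higher (edgeR), against 5.03% of all tested genes. None was called by edgeR or limma. DESeq2 called 3 higher, Cd5l, Marco and Vsig4, and 82 of all 12872 tested genes. Markers of recruited leukocytes summed to 22.4 to 35.7 and 35.8 to 103 TPM (12 genes, 6 of them tested), with none at 0 in all libraries. Of the 6, 3 pointed higher at an unadjusted p under 0.05, and none was called by edgeR, DESeq2 or limma. The recruited leukocyte sum was mostly Lyz2, at 24.2 ± 5.02 and 43.1 ± 22.9 TPM, which by itself overlapped between the groups. The Kupffer cell and recruited leukocyte sums were both highest in labelled knockout library 4, and their part in the integrin values was not tested.

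The alpha 4 and alpha 9 chains, which bind VCAM-1 and other ligands outside the laminins, also had an unadjusted p under 0.05 and did not pass. Itga4, found on lymphocytes and monocytes, averaged 0.122 ± 0.0615 TPM in controls, against 0.225 ± 0.0639 TPM in the labelled knockouts, a log2 fold change of 0.88 (SE 0.38; edgeR, adjusted p = 0.550). It shares 1124 exon bases with Cerkl on the other strand, and strand use in the counting is not given in the sources used here. Itga9 averaged 1.15 ± 0.250 and 1.66 ± 0.751 TPM, with a log2 fold change of 0.50 (SE 0.19; edgeR, adjusted p = 0.496).

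Collagen receptors gave no called gene. Itga1, the alpha 1 chain carried by sinusoidal and stellate cells, averaged 1.51 ± 0.315 TPM in controls, against 1.62 ± 0.409 TPM in the labelled knockouts (log2 fold change -0.06, SE 0.14). Itga10, of cartilage, had 121 counts in all and a log2 fold change of -0.20 (SE 0.46). Itga2 and Itga11 had 24 and 22 counts in all, lay at or below 0.0821 TPM in every library, and were not tested (exact permutation p = 0.222 and 0.976).

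Receptors for fibronectin, vitronectin and fibrinogen, which recognise an RGD motif, made up most of the integrin TPM beside Itgb1. Itgb5, which pairs with the alpha v chain, was the second most abundant member at 22.0 ± 5.48 TPM in controls, against 25.1 ± 4.35 TPM in the labelled knockouts (log2 fold change 0.12, SE 0.16). Itgb1 and Itgb5 together held 68.6 to 75.5% of all integrin TPM in controls and 62.6 to 72.0% in labelled knockout libraries. The fibronectin receptor chain Itga5 averaged 4.06 ± 1.14 and 4.13 ± 0.587 TPM (log2 fold change 0.05, SE 0.18), and the alpha v chain Itgav 2.89 ± 0.762 and 3.20 ± 1.13 TPM (log2 fold change -0.04, SE 0.19).

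Itga2b, the platelet fibrinogen receptor chain, averaged 1.92 ± 0.579 and 2.48 ± 0.736 TPM (log2 fold change 0.28, SE 0.35), and its partner Itgb3 0.266 ± 0.0823 and 0.303 ± 0.0561 TPM (log2 fold change 0.15, SE 0.26). Platelet markers, 8 genes of which 0 passed the count filter, summed to 1.36 to 2.55 TPM in controls, against 1.63 to 7.17 TPM in the labelled knockouts. Itga8, known from stellate and smooth muscle cells, had a log2 fold change of 0.20 (SE 0.41), which turned to -0.42 without labelled knockout library 4. None of the 6 tested RGD receptor genes passed or had an unadjusted p under 0.05 (edgeR), and none passed by DESeq2 or limma. Itgb6 and Itgb8, which activate TGF-beta with the alpha v chain, had 6 and 70 counts in all and were not tested (exact permutation p = 1 and 0.968).

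Laminin chains were lowly expressed, and none of the 10 tested passed by edgeR, DESeq2 or limma. At an unadjusted p under 0.05, 2 of the 10 pointed higher, against 5.03% of all tested genes. They were Lama4 and Lama5, whose alpha 4 and alpha 5 chains are the ones made by vascular endothelium. Lama4 stood at 1.19, 0.382, 0.674, 1.13 and 0.918 TPM in controls, against 1.34, 0.659, 0.814, 2.73 and 1.60 TPM in the labelled knockouts. In TPM, labelled knockout libraries 1, 4 and 5 were above every control, library 4 the farthest, and the other 2 lay among the controls. On log2 CPM, closer to the tested counts, it was libraries 1, 3 and 4, at 1.65, 1.99 and 2.69 against at most 1.34 in controls. Library 5 was at 1.26 there. The log2 fold change was 0.97 (SE 0.35; edgeR, adjusted p = 0.461), and 0.62 without library 4. Lama5 stood at 0.713, 0.658, 0.163, 0.385 and 0.266 TPM in controls, against 0.541, 0.809, 0.534, 1.25 and 0.353 TPM in the labelled knockouts, which overlapped. Its log2 fold change was 0.83 (SE 0.37; edgeR, adjusted p = 0.577). The counts behind 1 TPM differed 5.07-fold between libraries for Lama4 and 8.14-fold for Lama5.

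Of the other alpha chains, Lama3 averaged 1.03 ± 0.139 TPM in controls, where its mean was the highest of the laminin alpha chains, and 1.11 ± 0.309 TPM in labelled knockout libraries (log2 fold change 0.02, SE 0.17). Lamb3, its beta chain partner in the epithelial laminin of skin and ducts, averaged 0.813 ± 0.155 and 1.19 ± 1.02 TPM, with 2.92 TPM in labelled knockout library 2 and at most 1.18 TPM elsewhere (log2 fold change -0.07, SE 0.35). Lama1, the chain of early embryonic laminin, had a log2 fold change of -0.30 (SE 0.33) on counts and 0.40 with limma on log2(TPM + 0.1), so its direction is not set by these data. Lama2, the muscle and mesenchymal chain, lay at -0.10 (SE 0.49), and at -0.83 without labelled knockout library 4.

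Lamc1, the gamma 1 chain shared by most laminins, was the most abundant laminin gene. It stood at 2.71 ± 0.280 TPM in controls, against 3.67 ± 1.72 TPM in the labelled knockouts, where single libraries ran from 1.27 to 5.76 TPM against 2.30 to 2.999 TPM in controls (log2 fold change 0.17, SE 0.19). The beta chains Lamb1 and Lamb2, which join it in most tissues, had log2 fold changes of 0.02 (SE 0.30) and 0.56 (SE 0.33), and Lamb1 turned to -0.35 without labelled knockout library 4. Lamc3 lay at -0.09 (SE 0.56), at 0.18 without labelled knockout library 1, 0.13 without labelled knockout library 3 and 0.05 without control library 2, and at -2.17 without the third run or with the run as a covariate. Stellate cell markers, of cells that make sinusoidal matrix, summed to 104 to 169 TPM in controls, against 78.5 to 235 TPM in the labelled knockouts (10 genes), highest in library 4.

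**Figure D5:**
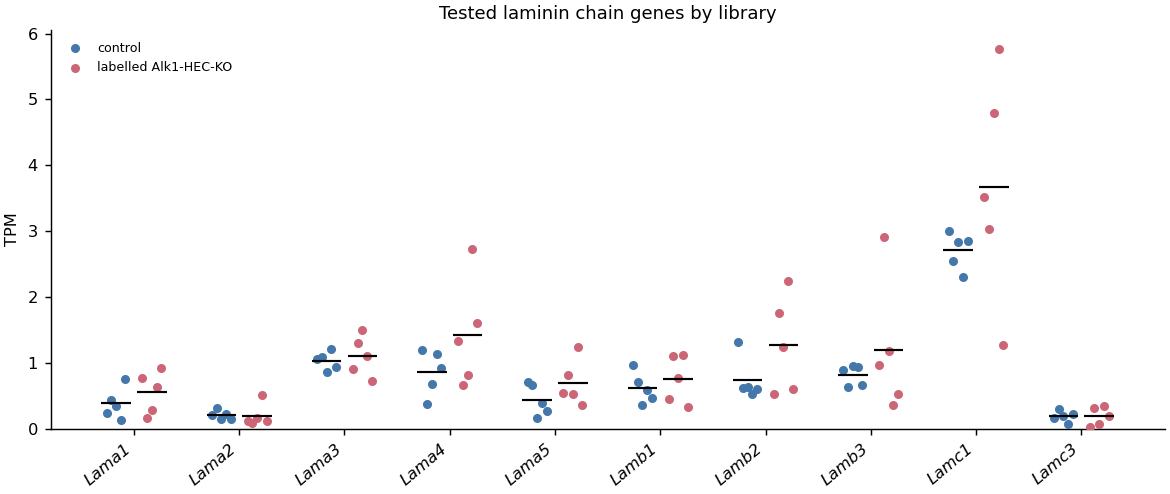
TPM of the 10 tested laminin chain genes in each of 5 control and 5 labelled knockout libraries; points are libraries and bars are group means. The groups overlap for every chain shown, and the spread among labelled knockout libraries in TPM is widest for Lamc1 (1.27 to 5.76 TPM), though not as a ratio of highest to lowest.

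Labelled knockout library 4 stood apart for the family, but not for the family alone. It held the highest TPM of all 10 libraries in 16 of the 29 tested members, among them Itga6, Itgal, Itgb2, Lama4, Lama5 and Lamc1, while it was the highest for 13.3% of all tested genes. Its sums were also the highest for continuous endothelial (136 TPM), sinusoidal (115 TPM), Kupffer cell (409 TPM) and recruited leukocyte markers (103 TPM). The same held for bile duct (57.9 TPM), stellate cell (235 TPM), mesothelial (1.93 TPM) and platelet markers (7.17 TPM), but not for hepatocyte or smooth muscle markers. The summed TPM of all laminin chains was 16.2 there and 6.62 to 12.6 in the other 4 labelled knockout libraries, against 7.22 to 9.80 in controls. Without this library Itga6 still passed, with a log2 fold change of 1.90 (edgeR, adjusted p = 0.0230).

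Proteins that pass integrin signals inside the cell showed no called gene. Of 34 listed adaptors and activators 33 were tested, and 0 passed by edgeR, DESeq2 or limma. At an unadjusted p under 0.05, 3 pointed higher and none lower, where 5.03% of all tested genes pointed higher and 3.42% lower. The median log2 fold change of the 33 was 0.07. The kindlin of blood cells Fermt3 averaged 0.845 ± 0.274 TPM in controls, against 1.64 ± 0.538 TPM in the labelled knockouts (log2 fold change 0.90, SE 0.29). The parvin of blood cells Parvg (0.95, SE 0.39) and the kinase gene Fyn (0.83, SE 0.28) were the other 2. The most abundant, the tetraspanin gene Cd81, lay at -0.05 (SE 0.14).

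Partners of laminins in the basement membrane pointed higher more often than not. All 14 were tested, and 12 had a log2 fold change above 0, as did 50.4% of all tested genes. The median over the 14 was 0.41, and 0 passed by edgeR or limma. At an unadjusted p under 0.05, 6 pointed higher and none lower, where 5.03% of all tested genes pointed higher and 3.42% lower. DESeq2 called 2 higher, Bcam and Col4a1, where it called 82 of all 12872 tested genes higher. Col4a1, of the network-forming collagen IV, averaged 4.26 ± 1.59 and 8.82 ± 4.08 TPM (log2 fold change 1.12, SE 0.24; edgeR, adjusted p = 0.0902), and Col4a2 had a log2 fold change of 0.68 (SE 0.20). Bcam, a laminin receptor outside the integrin family that binds the alpha 5 chain, stood at 1.45, 1.12, 0.680, 0.820 and 1.65 TPM in controls, against 2.10, 2.70, 2.40, 6.75 and 2.45 TPM in the labelled knockouts. Its groups did not overlap, with library 4 again the highest (log2 fold change 1.40, SE 0.35; edgeR, adjusted p = 0.175). The abundant collagen XVIII gene Col18a1 lay at 0.02 (SE 0.15).

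Ligands of the other integrins were tested for 19 of 24 genes, and 0 passed by edgeR or limma. At an unadjusted p under 0.05, 3 pointed higher and 2 lower, where 5.03% of all tested genes pointed higher and 3.42% lower. The median log2 fold change of the 19 was 0.28. Tgfb1, whose latent form is bound by alpha v integrins, averaged 3.79 ± 0.602 and 7.04 ± 2.57 TPM without overlap (log2 fold change 0.81, SE 0.21; edgeR, adjusted p = 0.187), and was called higher by DESeq2. Ccn1, a matrix protein bound by several integrins, averaged 15.1 ± 11.2 and 3.65 ± 1.21 TPM (log2 fold change -2.13, SE 0.59; edgeR, adjusted p = 0.294), and was called lower by DESeq2. Over all 12872 tested genes DESeq2 called 82 higher and 70 lower. Vwf, a protein of endothelium and platelets that binds platelet integrins, averaged 1.56 ± 0.445 and 0.987 ± 0.535 TPM, and the fibrinogen gene Fga, the most abundant, had a log2 fold change of 0.28 (SE 0.31).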

How the data were processed

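Whole-liver RNA was sequenced on the BGISeq-500 platform, per the labels' protocols. Tools listed in the submitters' processing notes are kallisto 0.4.6 and Trim Galore 0.6.4, with build GRCm38.p6. How transcripts were brought to genes is not given in the sources used here. Per library the authors deposited estimated counts and TPM per gene, over 55385 IDs, of which 55144 matched GENCODE M21 (GRCm38). Estimated counts, as deposited, were rounded to whole numbers. Genes were filtered with filterByExpr, scaled by TMM and tested with edgeR 4.0.16 (quasi-likelihood, robust, group only) in R 4.3.3, with Benjamini-Hochberg adjustment over 12872 genes and a threshold of 0.05. TPM deposited by the authors gave levels. Alternatives used DESeq2 1.42.0 and limma 3.58.1. Members and lists were chosen with earlier results of these data known, so their counts set against all tested genes are descriptive only. Values in every library are given for called genes, laminin receptors, leukocyte integrins whose mean reached 1 TPM in either group and laminin chains with an unadjusted p under 0.05. Of each pathway list, 3 genes with the smallest p and the most abundant are named. Library values of Itgam, Bcam and the endothelial pairs were added after they were seen. For the 8 members with too few counts, each permutation p given is unadjusted, and 1 of them is not reported here. On simulated counts (5 against 5 libraries, 12677 genes) edgeR recovered 68% of 2-fold, 94% of 4-fold and 90% of 8-fold changes, and 6% of 1.5-fold changes. It also called 7 unchanged genes. The changed genes were drawn from all tested genes at their own levels, so recovery at the low counts of many members was not tested.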

Additional observations from a re-analysis of the deposited data

Results flagged for a closer look

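Of 58 groups of 5 libraries checked (29 tested members in each group), 6 held a library whose gap to its neighbour was large for the range of its group; chance alone gives about 1 in 20. In labelled knockout library 4, Itgb2 stood at 2.99 TPM with the other 4 at 1.503 to 1.70 TPM, Itga8 at 0.995 TPM with the others at 0.165 to 0.350 TPM, and Lama2 at 0.506 TPM with the others at 0.0839 to 0.155 TPM. Among controls, Itgam stood at 0.875 TPM in library 5 (others 0.101 to 0.147 TPM), Lamb2 at 1.32 TPM in library 1 (others 0.532 to 0.627 TPM), and Itgb3 low in library 3 at 0.125 TPM (others 0.285 to 0.341 TPM).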

How the results depend on the processing

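Over all genes 46 were called. The count was 119 with no filter, 152 with DESeq2, 14 and 17 with limma on log2(TPM + 1) and log2(TPM + 0.1), 30 without the 3 libraries with high Saa1, 5 with the run of file numbers as a covariate and, chosen after seeing the data, 18 without the third run, and it ran from 33 to 83 when 1 library was left out (83 without labelled knockout library 1). Among integrins and laminins 1 gene, Itga6, was called, and so also among laminin receptors; both counts were 0 with limma on either TPM scale, without the high-Saa1 libraries, with the run covariate and without the third run, and stayed at 1 when any 1 library was left out. Leaving out 1 library moved the log2 fold change of Itga6 between 1.90 and 2.43. With offsets for average transcript length, also added later, it was 2.10. Of 669 values of the members that were not called, 77 took the other sign under an alternative. With the run covariate Itga2b, Itga3, Itga5, Itga7, Itga8, Itgb3, Itgb5 and Lamb1 turned below 0, to -0.34 to -0.04, and Itga10 and Itgav above 0, to 0.09 and 0.01; the cause was not tested. The counts of leukocyte integrins and of laminin chains were 0 throughout. Of the pairs with Itga6, 9 of 11 passed under both other pseudocounts, on log2 CPM and when any 1 library was left out, though with a pseudocount of 1 Itga7 missed (0.73; exact permutation, adjusted p = 0.0698) and Itgax passed; 0 passed without the high-Saa1 libraries (4 against 3, smallest exact permutation p 0.0286). The replicate block gave 40 calls over all genes and kept Itga6 (log2 fold change 2.18; edgeR, adjusted p = 0.0176). No clear pairing by equal replicate numbers was seen: their deviations correlated at -0.10 to 0.28, and only numbers 1 and 5 matched their own number best. So few correlations cannot tell a weak pairing from none. Scaling by library totals alone moved the median of all genes to 0.07 and put 24 of 29 members above 0, against 21, and 63.1% of all tested genes, against 50.4%. On simulated counts of these library sizes 6% of 1.5-fold changes were recovered, so differences of that size were mostly missed.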

Other observations

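The beta 1 chain was more abundant than all its alpha partners together. Itgb1 TPM divided by the summed TPM of Itga1 to Itga11 and Itgav was 1.85 to 2.64 in controls and 1.11 to 2.33 in labelled knockout libraries, with the lowest values in labelled knockout libraries 4 and 5 (1.31 and 1.11). All integrin alpha chains summed to 17.8 ± 2.16 TPM in controls against 23.1 ± 4.71 TPM in the labelled knockouts, and all beta chains to 55.5 ± 11.6 and 60.1 ± 9.996 TPM (SD, n = 5), both overlapping. The summed leukocyte integrins did not overlap, at 2.38 to 4.12 TPM in controls against 4.74 to 8.14 TPM in the labelled knockouts. That gap rests in part on Itgb7, whose counts behind 1 TPM differed 10.2-fold between libraries. Itgb7 gave 1.81 of the 4.74 TPM in labelled knockout library 1, and 0.278 of the 3.97 TPM in control library 5. Itgam, as unsteady, added 0.875 TPM to that control library.

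The relation of counts to TPM was stable for some members and not for others. Between the highest and the lowest library, the counts behind 1 TPM differed less than 1.5-fold for 15 of the 29 tested members, Itga6 (1.37-fold), Itgb1 (1.21-fold) and Itgb2 (1.22-fold) among them, and more than 3-fold for 8. Itgam had the widest range, 8.004 to 96.9 counts per TPM.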
